A study of Mus musculus with 31 samples.

Results

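The genes described here are the classical axon guidance ligands and their receptors: ephrins and Eph receptors, Slits and Robos, semaphorins with their plexin and neuropilin receptors, and netrins with Dcc and the Unc5 receptors. They were chosen by gene symbol alone, as every gene of these families in the authors' normalized table. The rule gave 67 of the 20774 mouse genes in that table, and their raw counts were taken from the matching rows of the count table. Robo3 and Ntn5 carry fitting symbols but are outside the normalized table, and they had 26 and 3 reads in all 31 cells. Each of the 31 samples was 1 neuron of a mouse brainstem slice, taken from a line with Cre recombinase at the Chat locus and a Cre-dependent tdTomato reporter, which marks cholinergic cells in red. The labels give the genotype of every sample as wild-type and name no age, sex or animal. The neurons were 18 lateral olivocochlear (LOC) and 13 medial olivocochlear (MOC) neurons, 2 classes of brainstem cells that send axons back to the cochlea. All were recorded by patch clamp before their cytoplasm was drawn into the pipette for Smart-seq2, a full-length cDNA method for single cells.

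Guidance ligands steer growing axons by attraction or repulsion. Ephrins are held in the membrane and bind Eph receptor tyrosine kinases, Slits are secreted and repel through Robo receptors, secreted class 3 semaphorins act through neuropilins and plexins, membrane semaphorins bind plexins directly, and netrins attract through Dcc and repel through Unc5. Many of these genes remain expressed in mature neurons, where they act at synapses. LOC axons end on auditory nerve fibres beneath the inner hair cells, and MOC axons end on outer hair cells, so these are related cells with different targets.

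Levels are counts per 1000000 of the reads that a cell has on mouse genes (CPM). The group level is the sum of a group's counts on the gene over its summed reads, also in CPM, given with an exact 95% Poisson interval where it matters. Totals ran from 356412 to 2627174 counts per cell, so that 3 reads, the limit that a count of 0 allows, stand for 1.14 to 8.42 CPM. Because no animal is named, each group counts as 1 sample. There is hence no test or p-value, and each comparison describes these libraries. Reads carry no molecular identifiers, so intervals cover counting error only. A gene met the size rule if its group levels differed at least 2-fold, its means of log2(CPM + 1) over cells differed by at least 1 in the same direction, and 25% or more of the cells in the higher group had a read. No 2 libraries held the same values, and the highest correlation between any 2 was 0.824.

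The cell type markers differed widely between the libraries. Chat, Slc18a3 and Slc5a7, which make, load and recycle for acetylcholine, had at least 10 reads together in 14 of 18 LOC and 8 of 13 MOC cells. This limit counts reads and not CPM, so it depends on depth. MOC cell 7 passed it with 28 of 2627174 counts, whereas LOC cell 7, with 5 of 356412, did not. LOC cell 17 passed it with 11 reads, all of them of Slc5a7. LOC cells 14 and 16 and MOC cell 8 had 0 reads of the 3 genes, and MOC cell 13 had 1. LOC cell 14 and MOC cell 13 instead had 650 and 413 CPM of Slc17a7, a vesicular glutamate transporter, and almost no oligodendrocyte RNA (22.7 and 363 CPM over 10 markers). Slc17a6, another such transporter, was at 59.6 CPM in LOC cell 14 and 0 in MOC cell 13. The highest Slc17a7 level, 731 CPM, was in MOC cell 2, which had 45 reads of the 3 cholinergic genes. MOC cell 8 had 1690 CPM of Gad1, an enzyme of GABA synthesis. Oligodendrocyte markers reached 238537 CPM in LOC cells and 123302 CPM in MOC cells, and either group had reads of each of the 10 in 50% or more of its cells. Microglia markers, all 10 of which were read in both groups, spanned 31.1 to 2031 CPM in LOC and 40.7 to 9480 CPM in MOC, and Cx3cr1, Csf1r, C1qb and Ctss met the size rule as higher in MOC. Of the 4 oligodendrocyte precursor markers, Olig1 and Pdgfra did so too. Opalin, Aldh1l1 and Gad1 were also called for MOC, and Slc18a3 and Gata2 were called for LOC. In what follows, MOC cells 8 and 12 and LOC cell 9, the highest in microglia markers, are the microglia-rich libraries. LOC cells 2, 5, 9 and 17 and MOC cells 6 and 7, with over 10% of counts on oligodendrocyte markers, are the oligodendrocyte-rich ones. The part of this glial and non-cholinergic RNA in the differences below was not tested. Leaving out 1 cell moved the level of at least 1 group by over 1.5-fold for 53 of the 67 members, and only some of these values are printed below.

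Of the 67 guidance genes, 6 (8.96%) met the size rule as higher in LOC, against 6.07% of all 17754 measured genes. Another 6 (8.96%) met it as higher in MOC, against 5.67% of all measured genes. The LOC-higher genes were Sema4a, Plxna3, Robo2, Epha5, Plxna1 and Sema3c. The MOC-higher genes were Nrp2, Ephb6, Robo1, Efnb1, Plxnc1 and Epha3. Of these 12 genes, 9 encode receptors, out of 33 receptor genes among the members, and Sema4a, Sema3c and Efnb1 are 3 of the 34 ligand genes. The other 55 members were not called over all cells. This split moved with single cells and was not tested. The calls of Epha3, Plxnc1, Plxna1 and Sema3c were lost in 14, 11, 6 and 15 of the 31 runs without 1 cell. Genes called in such runs only included the ligands Efna3, Slit2, Slit3 and Sema4f and the receptors Epha7, Plxnb3, Unc5c and Unc5d. Differences of the mean log2(CPM + 1), LOC minus MOC, ran from -1.98 to 2.47 over the members, with 28 above 0 and 39 below 0. Their median was -0.14, beside -0.07 for all measured genes. For every member the cells of the groups overlapped, and no member was read in all 31 cells.

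**Figure D1:**
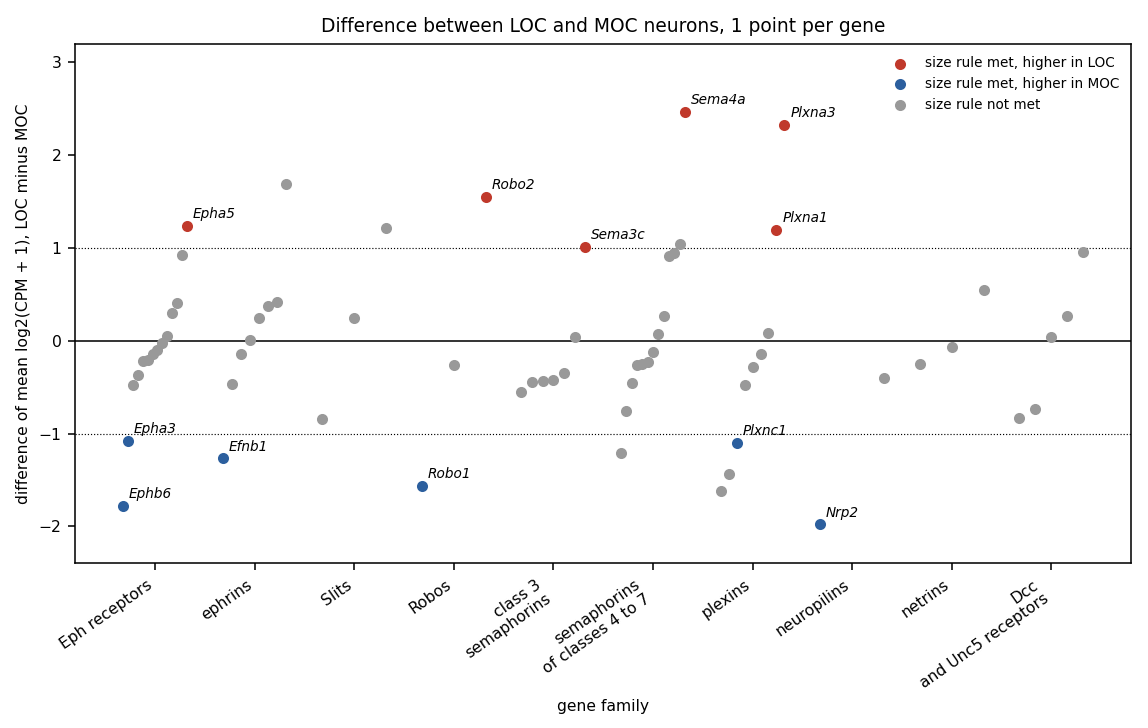
Difference of mean log2(CPM + 1), LOC minus MOC, for each of the 67 guidance genes (1 point per gene, by family), with genes that met the size rule in colour and named and dotted lines at a difference of 1 in either direction. The points run from -1.98 for Nrp2 to 2.47 for Sema4a, and both directions occur among the Eph receptors, the Robos and the plexins.

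The 210 bases ending 41 bases before a RefSeq start site are given for the pair of called genes with the widest difference in each direction. The start regions of genes with opposite patterns can thus be read side by side. RefSeq gave 4 start sites for Sema4a, of which only the 1 nearest the annotated gene start is shown, and 1 for each other gene. Sequences are from RefSeq on GRCm38.p6, 5′ to 3′ on the gene's strand, and capitals mark the GC box letters GGGCGG or their reverse complement CCGCCC. The window of Sema4a is chr3:88461223-88461432 on the minus strand, that of Plxna3 chrX:74328816-74329025 on the plus strand, that of Nrp2 chr1:62703067-62703276 on the plus strand, and that of Ephb6 chr6:41605261-41605470 on the plus strand.
Sema4a: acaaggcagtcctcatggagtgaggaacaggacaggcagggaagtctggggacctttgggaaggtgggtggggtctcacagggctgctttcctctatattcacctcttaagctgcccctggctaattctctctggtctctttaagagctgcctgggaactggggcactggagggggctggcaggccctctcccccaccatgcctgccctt
Plxna3: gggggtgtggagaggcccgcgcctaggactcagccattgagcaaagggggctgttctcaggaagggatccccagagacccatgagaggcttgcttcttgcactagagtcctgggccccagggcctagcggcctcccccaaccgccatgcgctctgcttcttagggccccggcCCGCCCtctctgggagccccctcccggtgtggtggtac
Nrp2: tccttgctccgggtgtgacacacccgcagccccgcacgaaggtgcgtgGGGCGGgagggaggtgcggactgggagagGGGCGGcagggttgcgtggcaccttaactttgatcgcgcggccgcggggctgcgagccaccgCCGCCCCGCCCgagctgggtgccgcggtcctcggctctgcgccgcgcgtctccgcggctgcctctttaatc
Ephb6: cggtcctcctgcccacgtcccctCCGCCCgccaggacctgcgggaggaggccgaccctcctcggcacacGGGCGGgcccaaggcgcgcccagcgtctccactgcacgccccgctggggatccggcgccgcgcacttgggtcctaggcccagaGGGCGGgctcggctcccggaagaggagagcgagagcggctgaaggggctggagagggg
The LOC-higher pair had windows with 59.0% (Sema4a) and 67.1% (Plxna3) G or C and 0 and 8 CG pairs. The MOC-higher pair had 73.3% (Nrp2) and 76.2% (Ephb6) G or C and 28 and 23 CG pairs, against medians of 51.9% and 4 over all 32851 windows. On either strand, the GC box letters occurred in 26.7% of all windows; Nrp2 held 4, Ephb6 3, Plxna3 1 and Sema4a 0, and neighbouring matches may overlap. The GATA letters AGATAA, or TGATAA, or else AGATAG, or TGATAG (23.8% of all windows) and the homeodomain letters TAATTA (4.37%) were in none of the 4 windows. These are letter matches in 1 window per gene and nothing more.

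Sema4a, which encodes a membrane-bound class 4 semaphorin, had the widest difference towards LOC. The gene lies at chr3:88435959-88461182 on the minus strand. LOC cells ran from 0 through a median of 61.5 to 257 CPM, and MOC cells from 0 through 4.25 to 122 CPM. Of the 18 LOC cells, 12 were above 50 CPM, and among the MOC cells only cells 6 and 13 were. Group levels were 75.4 CPM (95% interval 71.0 to 80.0) in LOC and 15.8 CPM (13.8 to 18.1) in MOC, a ratio of 4.76. The mean log2(CPM + 1) was 4.91 ± 2.69 (SD, n = 18 cells) in LOC and 2.44 ± 2.35 (SD, n = 13 cells) in MOC. The highest MOC cell was cell 13, which had 1 cholinergic read, and without it the MOC level was 10.1 CPM. Sema4a met the rule in every one of the 31 runs that left out 1 cell and under the 10 other settings that alter the values. A microRNA gene, Mir7011, shares exonic bases with it.

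Among the other membrane semaphorins no gene met the rule, and each of them was read in cells of both groups. Per kilobase of exon, Sema4a was the highest of classes 4 to 7 in LOC (13.9 CPM per kb) and Sema4d, which signals through plexin B1, the highest in MOC (11.5 CPM per kb). Sema4d was read in 16 of 18 LOC and all 13 MOC cells, with medians of 61.9 and 49.9 CPM, and its difference was -0.45. Sema6a and Sema6d, transmembrane semaphorins that bind A-type plexins, were read in 28 cells each, at group levels of 55.1 and 96.8 CPM in LOC and 34.2 and 59.1 CPM in MOC. Sema6a had a difference of 1.04 and Sema4f one of -1.21, and both missed the rule because the group levels lay within a factor of 2. Without LOC cell 3 the LOC level of Sema4f went from 22.4 to 14.1 CPM and it met the rule as higher in MOC. Sema6c, at 26.9 CPM in LOC against 5.72 in MOC, missed the rule with a difference of 0.95. It was called for LOC without the oligodendrocyte-rich libraries (1.59) and without LOC cell 14 and MOC cell 13 (28.1 against 5.87 CPM). It was not called with at least 10 cholinergic reads (0.695) or without the microglia-rich libraries (0.84). Sema6d (0.91 over all cells) was called for LOC only in the first of these sets (1.68) and Sema6a only in the last (1.44). The remaining members of these classes had differences between -0.75 and 0.27.

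Secreted class 3 semaphorins were low in both groups. No member of the class had a group level above 12.2 CPM. Sema3c, at chr5:17574281-17730268 on the plus strand, met the rule for LOC with 11.6 CPM (9.94 to 13.5) against 5.35 CPM (4.20 to 6.73). LOC cells spanned 0 to 50.6 CPM with a median of 7.22, and MOC cells 0 to 19.5 CPM with a median of 2.95. Its highest cell, LOC cell 17, had the most oligodendrocyte RNA of all libraries. The difference of 1.01 was just inside the rule: it went under 1 without any 1 of LOC cells 1, 2, 4, 5, 6, 7, 9, 11 and 17 or MOC cells 3, 4, 5, 6, 9 and 13, to as little as 0.84. The call was also lost with TMM sizes (0.97), DESeq2 size factors (0.84), the authors' normalized values (0.98) and thinning to 350000 counts (0.21). Without the 6 oligodendrocyte-rich libraries, the levels were 6.89 and 5.07 CPM. Sema3b had the highest level of the class per kilobase in MOC, but 82.5% of its MOC reads came from cell 7, and without that cell its MOC level went from 7.55 to 1.64 CPM. The other members of the class, Sema3a, Sema3d, Sema3e, Sema3f and Sema3g, had differences between -0.45 and 0.05.

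Plexins are the signalling receptors for semaphorins, and 3 of the 9 met the rule. Plxna3, a receptor that pairs with neuropilins, lies at chrX:74329066-74344689 on the plus strand. LOC cells spanned 0, 12.5 and 153 CPM (lowest, median and highest, the order used from here on), and MOC cells 0, 0.69 and 44.6 CPM. Reads were present in 16 of 18 LOC cells (88.9%, with a Clopper-Pearson 95% interval of 65.3 to 98.6%). The MOC cells with reads were 7 of 13 (53.8%, 25.1 to 80.8%). LOC cells 1, 4, 12 and 14 were all above 120 CPM, and no MOC cell was. The group levels were 40.6 CPM (37.4 to 44.1) and 6.16 CPM (4.91 to 7.63), with means of 3.88 ± 2.42 (SD, n = 18 cells) and 1.56 ± 2.03 (SD, n = 13 cells) on the log2(CPM + 1) scale. Plxna3 met the rule in all 31 runs that left out 1 cell and under the 10 other settings that alter the values, at differences of 1.99 without LOC cell 14 and MOC cell 13 and 2.83 without the oligodendrocyte-rich libraries. MOC cell 11 gave 50% of the MOC reads, and the MOC level without it was 3.31 CPM.

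Plxna1, the related receptor at chr6:89316314-89362620 on the minus strand, was read in 16 LOC and 10 MOC cells. LOC cells had 0, 19.1 and 119 CPM and MOC cells 0, 6.62 and 35.4 CPM. Its group levels were 25.2 and 11.5 CPM, a ratio of 2.19 that was close to the limit of the rule. It was no longer called without any 1 of LOC cells 8 and 12 or MOC cells 3, 5, 6 and 8, nor with DESeq2 size factors (0.92). In the cells with at least 10 cholinergic reads the levels were 27.8 and 14.2 CPM, and without the 3 microglia-rich libraries they were 25.79 and 13.02 CPM, both just under 2-fold. The gene Gm26811 overlaps its exons on the opposite strand, and libraries of this kind keep no strand. Plxna2 and Plxna4, the other A-type plexins, had differences of 0.08 and -0.14, with levels of 22.2 and 37.9 CPM in LOC and 40.6 and 63.9 CPM in MOC. Without MOC cell 13 the MOC level of Plxna2 was 11.4 CPM, and without MOC cell 2 that of Plxna4 was 18.8 CPM, both under the LOC level. Without LOC cell 14 the LOC level of Plxna4 was 20.9 CPM. In cells with at least 10 cholinergic reads, Plxna4 met the rule as higher in MOC (20.7 against 91.7 CPM, -1.13). MOC cell 2, the source of 72.6% of all MOC reads of Plxna4, is among these cells. Plxna2 did not meet the rule in this set of cells (0.36). Plxnd1, a receptor for Sema3e, was at 3.02 and 4.84 CPM (-0.48).

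Plxnc1, a receptor for Sema7a, lies at chr10:94790866-94944835 on the minus strand and met the rule in the other direction. LOC cells had 0, 3.77 and 75.3 CPM, and MOC cells 0, 7.20 and 120 CPM. MOC cells 3 and 5 were near 120 CPM, and LOC cells 3 and 15 near 70 CPM, well above the remaining cells of either group. Group levels were 12.7 CPM (10.9 to 14.7) and 27.0 CPM (24.3 to 29.9). The call ended without any 1 of LOC cells 2, 5, 8, 11, 12, 17 and 18 or MOC cells 2, 3, 5 and 7, with a smallest difference of -0.79, and without the oligodendrocyte-rich libraries (-0.75). Medians over cells (-0.78) and a pseudocount of 10 (-0.535) ended the call too. In cells with at least 10 cholinergic reads the difference was wider, -1.94. Its MOC level without cell 3 was 17.1 CPM, and its LOC level without cell 3 was 8.19 CPM. Sema7a was read in 23 cells, at 6.10 CPM in LOC against 11.4 in MOC, and the MOC level without cell 3 was 4.55 CPM.

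Of the B-type plexins, receptors for class 4 and 5 semaphorins, Plxnb2 was the highest plexin per kilobase in LOC (8.49 CPM per kb) and Plxnb3 in MOC (8.17 CPM per kb). Plxnb2 was at 65.6 CPM in LOC against 55.3 in MOC, but LOC cell 1 alone had 500 CPM, and without it the LOC level was 37.6 CPM. LOC cells had 0, 12.5 and 500 CPM and MOC cells 0, 42.5 and 191 CPM. The cell means thus went the other way from the group levels (difference -1.62), and Plxnb2 did not meet the rule. Plxnb3, a plexin known from the oligodendrocyte lineage, had a difference of -1.43 with levels of 33.4 and 53.0 CPM. LOC cell 2, an oligodendrocyte-rich library, gave 47.3% of its LOC reads. Without that cell (19.3 CPM in LOC), without the oligodendrocyte-rich libraries (12.2 against 44.7 CPM), without the microglia-rich ones (25.4 against 54.6 CPM) or in the cells with at least 10 cholinergic reads (20.99 against 67.12 CPM), Plxnb3 met the rule as higher in MOC. Plxnb1 was at 27.3 CPM in LOC against 24.1 in MOC (-0.29).

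Nrp2, the neuropilin that binds Sema3f, had the widest difference towards MOC of all 67 members. It lies at chr1:62703285-62818695 on the plus strand. MOC cells had 0, 8.86 and 234 CPM, and LOC cells 0, 2.13 and 29.8 CPM. All but 1 of the 13 MOC cells had a read, and MOC cells 5, 8, 10 and 12 were above every LOC cell. The group levels were 31.3 CPM (28.4 to 34.4) in MOC and 4.07 CPM (3.09 to 5.26) in LOC, a ratio of 7.70. The means were 3.57 ± 2.48 (SD, n = 13 cells) in MOC and 1.59 ± 1.56 (SD, n = 18 cells) in LOC. MOC cells 8 and 12 are microglia-rich libraries, and without them and LOC cell 9 the levels were 24.5 and 4.14 CPM, with a difference of -1.54. In the 22 cells with at least 10 cholinergic reads they were 29.9 and 4.43 CPM (-1.84). Nrp2 met the rule in every run that left out 1 cell and under the 10 other settings that alter the values. Nrp1, which binds Sema3a, was at 9.96 CPM in LOC against 7.70 in MOC, with a difference of -0.40. LOC cells 2 and 10 and MOC cell 5 each moved its group level by more than 1.5-fold when left out, to 6.61, 5.43 and 4.22 CPM. Sema3a and Sema3f themselves were read in 25 and 22 cells, at 11.2 and 4.49 CPM in LOC and 12.1 and 3.23 CPM in MOC. The Sema3a levels were 3.32 CPM in LOC without cell 14 and 6.01 CPM in MOC without cell 3, and the LOC level of Sema3f without cell 18 was 1.56 CPM. In cells with at least 10 cholinergic reads, Sema3a met the rule as higher in MOC (2.71 against 16.2 CPM, -1.05), and Sema3f did not meet it (-0.61).

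Ephrins are both ligands and, through their own tails or membrane partners, receptors. Efnb1, at chrX:99136130-99148991 on the plus strand, was the ephrin that met the rule. MOC cells had 0, 2.68 and 29.4 CPM, and LOC cells 0, 0 and 25.3 CPM. Reads were found in 9 of 13 MOC cells and 6 of 18 LOC cells, of which LOC cell 7 alone was above 6 CPM. The levels were 7.11 CPM (5.77 to 8.68) in MOC and 1.26 CPM (0.748 to 1.995) in LOC. These are low counts, 97 and 18 reads in all. The call held in all 31 runs that left out 1 cell, with differences from -1.50 to -1.02, but LOC cell 7 gave 50% of the LOC reads and MOC cell 3 gave 40.2% of the MOC reads. Without these cells the group levels were 0.65 and 4.71 CPM.

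Per kilobase, Efna3 and Efnb3 were the highest ephrins. Efna3 had a difference of 1.69 although its group levels were alike (26.02 and 25.01 CPM). A read was found in 10 of 18 LOC cells, each with at least 13 CPM, and in 4 of 13 MOC cells. One of the latter, MOC cell 2, held 282 CPM and 74.2% of the MOC reads, and without it the MOC level was 6.91 CPM and Efna3 met the rule as higher in LOC. The gene Gm15998 overlaps its exons. Efnb3, a ligand in midline and synapse biology, was read in 16 LOC and 9 MOC cells at 26.7 and 20.2 CPM (difference 0.38). Of the remaining ephrins, Efna5 (24.6 and 12.6 CPM) and Efnb2 (15.4 and 7.11 CPM) were read in most cells without meeting the rule. Without LOC cell 14 the LOC level of Efna5 was 9.67 CPM, and without MOC cells 3 or 13 its MOC level was 7.31 or 8.11 CPM. The remaining Efna1, Efna2 and Efna4 were all under 3.1 CPM in both groups.

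Of the 14 Eph receptors, Epha5 met the rule for LOC and Ephb6 and Epha3 for MOC. Epha5, at chr5:84054761-84417382 on the minus strand, is a receptor for A-type ephrins. LOC cells had 0, 46.5 and 294 CPM, and MOC cells 0, 10.04 and 174 CPM. Of the LOC cells, 9 of 18 were at 60 CPM or more, as were 2 of 13 MOC cells, cells 5 and 9. The group levels were 73.2 CPM (68.9 to 77.8) and 21.4 CPM (19.0 to 24.0), with means of 4.68 ± 2.65 (SD, n = 18 cells) and 3.44 ± 2.06 (SD, n = 13 cells). Almost every cell had a read, 16 of 18 and 12 of 13, so the difference was one of level rather than of share. It was 0.95 without MOC cell 3 and 0.97 without LOC cell 14 and MOC cell 13 together, and in those runs it was not called.

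Epha3, another receptor for A-type ephrins, lies at chr16:63543534-63864175 on the minus strand and had 29.3 CPM in MOC and 11.2 CPM in LOC. MOC cells had 0, 10.8 and 292 CPM, and LOC cells 0, 0.98 and 69.1 CPM. MOC cell 4 held 45.5% of the MOC reads, and the MOC level without it was 16.8 CPM, with a difference of -0.63. The call ended without any 1 of 14 cells, LOC cells 9, 11 and 13 to 18 and MOC cells 2, 3, 4, 6, 7 and 12. It also ended in the cells with at least 10 cholinergic reads (-0.81) and without the oligodendrocyte-rich libraries (-0.48). Epha4, Epha7, Epha8 and Epha10, which were each read in at least 22 cells, had differences between -0.21 and 0.92. In cells with at least 10 cholinergic reads, Epha4 (22.2 against 3.86 CPM, 1.57) and Epha7 (37.55 against 2.76 CPM, 2.08) met the rule as higher in LOC. There Epha8 (0.23) and Epha10 (-0.63) did not meet it. The LOC levels of Epha4 and Epha10 without LOC cell 14 were 20.2 and 4.65 CPM. Without MOC cell 13 the MOC level of Epha4 was 5.33 CPM, and without MOC cell 7 that of Epha10 was 5.63 CPM. Without MOC cell 13 the MOC level of Epha7 went from 17.4 to 4.02 CPM and it met the rule as higher in LOC (1.41). LOC cell 2, an oligodendrocyte-rich library, gave 44.7% of the LOC reads of Epha7, and without it the LOC level was 20.1 CPM (0.67). Without all the oligodendrocyte-rich libraries, Epha7 was at 24.7 CPM in LOC and 22.8 in MOC (0.82). The remaining Epha1, Epha2, Epha6, Ephb2, Ephb3 and Ephb4 were at 0.95 to 12.5 CPM in either group, with differences between -0.37 and 0.29.

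Ephb6, a receptor without kinase activity, lies at chr6:41605482-41620509 on the plus strand. MOC cells had 0, 4.25 and 562 CPM, and LOC cells 0, 0 and 187 CPM. MOC cell 5 was far above all others and held 54.0% of the MOC reads, and LOC cell 14 held 78.1% of the LOC reads. The levels were 45.6 CPM (42.1 to 49.3) in MOC and 11.9 CPM (10.1 to 13.8) in LOC. Without MOC cell 5 the MOC level was 21.9 CPM, the difference went from -1.78 to -1.28 and the gene was not called. Without LOC cell 14 the LOC level was 2.73 CPM and the difference -2.14. In cells with at least 10 cholinergic reads, Ephb6 was at 52.6 CPM in MOC and 3.03 CPM in LOC. Ephb1, the highest Eph receptor per kilobase in LOC, was at 43.6 CPM in LOC against 27.8 in MOC with a difference of -0.48. Its reads were in 12 LOC and 12 MOC cells. The gene Gm26846 overlaps its exons.

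The Slit receptors Robo1 and Robo2 went in opposite directions. Both genes lie on chromosome 16, Robo1 at chr16:72308306-73046095 on the plus strand and Robo2 at chr16:73891839-74411825 on the minus strand. Robo2 was at 0, 13.1 and 234 CPM in LOC cells and at 0, 1.97 and 45.0 CPM in MOC cells. LOC cells 1, 2 and 3 were above 130 CPM, and 5 of the 18 LOC cells were at 0. Its group levels were 49.9 CPM (46.3 to 53.7) in LOC and 5.35 CPM (4.20 to 6.73) in MOC. The ratio of 9.33 was the largest of the called members, and the difference was 1.55. LOC cell 2, an oligodendrocyte-rich library, gave 41.2% of the LOC reads, and the LOC level was 32.2 CPM without it. MOC cell 4 gave 38.4% of the MOC reads, and the MOC level was 3.46 CPM without it. Robo2 met the rule without either, without the oligodendrocyte-rich libraries (40.5 against 6.24 CPM) and in cells with at least 10 cholinergic reads (52.2 against 2.76 CPM).

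Robo1 was at 0, 4.25 and 75.2 CPM in MOC cells and at 0, 1.29 and 35.1 CPM in LOC cells. It was read in 12 of 13 MOC cells and in 10 of 18 LOC cells. The group levels were 11.1 CPM (9.378 to 12.99) in MOC and 4.70 CPM (3.64 to 5.97) in LOC, with a difference of -1.56. LOC cell 2 gave 65.7% of the LOC reads, and the LOC level without it was 1.77 CPM. Robo1 was not called without MOC cell 5 (-1.28) or without the 3 microglia-rich libraries (9.32 against 4.87 CPM, difference -1.25). Robo4, known from blood vessels, was under 1 CPM in both groups.

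Within single cells, the higher receptor could be compared per kilobase of exon in the same library. Robo2 was higher than Robo1 in 13 of 18 LOC cells, lower in 1, and in 4 neither had a read. Robo1 was higher than Robo2 in 9 of 13 MOC cells, lower in 3, and in 1 neither had a read. MOC cells 6 and 13 had equal CPM of both genes and count for Robo1 only through its shorter exon length. Among cells with at least 5 reads of either gene, Robo2 was higher in 11 of 11 LOC cells and Robo1 in 6 of 9 MOC cells. With at least 10 cholinergic reads, the counts were 10 for Robo2 against 1 for Robo1 in 14 LOC cells and 1 against 6 in 8 MOC cells. The pair was chosen after its values were seen, as were Epha5 with Epha3 and Plxna3 with Plxnc1. Epha5 was higher than Epha3 in 13 LOC cells and lower in 4, and in MOC cells higher in 6 and lower in 7. Plxna3 was higher than Plxnc1 in 13 LOC cells and lower in 4, and in MOC cells higher in 4 and lower in 8.

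**Figure D2:**
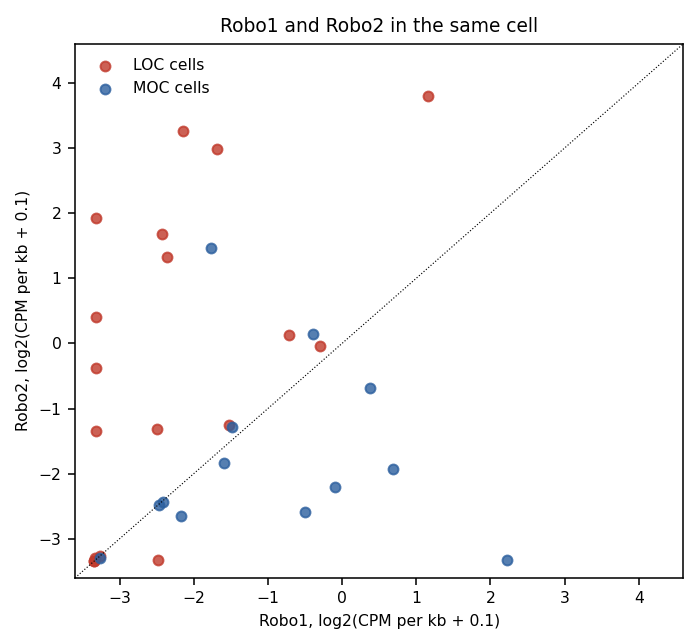
Robo1 (x axis) against Robo2 (y axis) in each LOC and MOC neuron, as log2 of CPM per kb of exon plus the constant given on the axes. The dotted line marks equal levels: 13 of 18 LOC cells lie above it and 9 of 13 MOC cells below it, and the cells with a read of neither gene, moved apart slightly, are at the lower left corner.

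Slit3, a secreted ligand for Robos, had the highest level per kilobase of exon of any member in LOC, 18.4 CPM per kb. LOC cells had 0, 16.9 and 513 CPM, and MOC cells 0, 5.76 and 739 CPM. LOC cells 1, 3, 4, 8, 10, 11, 13 and 15 were at 50 CPM or more, as were MOC cells 2 and 5. The group levels were 112 CPM (106 to 117) and 57.3 CPM (53.4 to 61.5), a ratio of 1.95, so that Slit3 missed the rule despite a difference of 1.22. MOC cell 5 held 56.5% of the MOC reads. Without it the MOC level was 26.1 CPM and Slit3 met the rule as higher in LOC, and likewise without the oligodendrocyte-rich libraries (156 against 74.6 CPM). Slit1 was at 14.4 CPM in LOC against 27.7 in MOC, but 94.2% of the MOC reads came from MOC cell 13, and without that cell the MOC level was 1.7 CPM. Slit2 was at 25.5 and 38.3 CPM with a difference of -0.85. Without LOC cell 8 its LOC level was 11.1 CPM and it met the rule as higher in MOC (-1.19), and without MOC cell 3 its MOC level was 19.7 CPM. Slit2 was also called for MOC in cells with at least 10 cholinergic reads (21.6 against 54.2 CPM, -2.04).

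**Figure D3:**
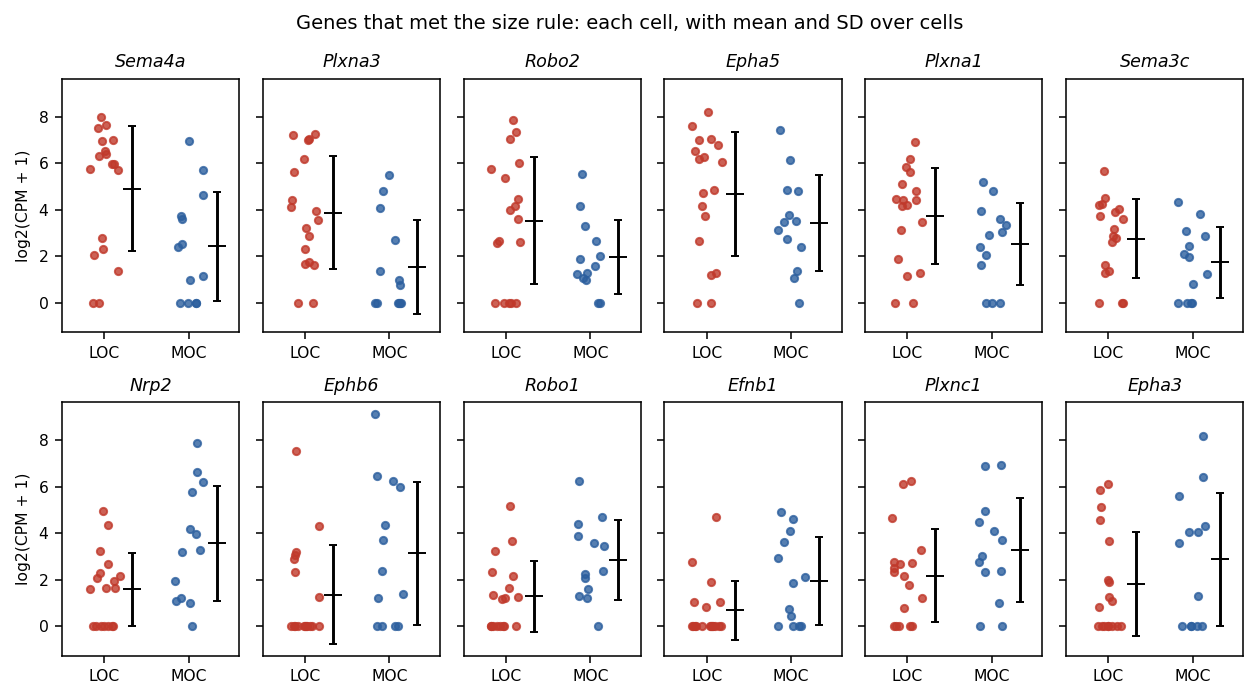
Level in log2(CPM + 1) of each LOC and MOC cell for the 12 guidance genes that met the size rule, with the mean and SD over cells beside the points, which are spread sideways for sight only. In every panel the groups overlap and some cells of each group are at 0, whereas the means differ by 1.01 (Sema3c) to 2.47 (Sema4a) in either direction.

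Netrins and their receptors held no gene that met the rule. Ntn1, the secreted founding netrin, was read in 15 of 18 LOC and all 13 MOC cells at low levels, 6.10 and 5.79 CPM, and its difference was -0.25. Ntn4, a netrin of basement membranes, was at 5.54 CPM in LOC against 1.32 in MOC but had a difference of 0.55, below the rule. In cells with at least 10 cholinergic reads its levels were 2.54 and 1.10 CPM. Ntn3 was near 2.7 CPM in both. Dcc, the attractive netrin receptor, was at 12.4 CPM in LOC against 3.30 in MOC. It was read in 8 and 6 cells, and LOC cells 7 and 14, neither with 10 cholinergic reads, had 174 and 145 CPM while every other cell was under 20 CPM. Among the repulsive receptors, Unc5a was the highest per kilobase, at 18.03 CPM in LOC against 37.5 in MOC (-0.84). MOC cell 13 gave 36.4% of its MOC reads, and without LOC cell 14 and MOC cell 13 the levels were 19.0 and 25.1 CPM. Its exons overlap those of Hk3. Unc5b was at 19.4 and 22.7 CPM (0.04). Leaving out MOC cell 7, the source of 47.2% of its MOC reads, gave a MOC level of 14.8 CPM. Unc5c was at 57.8 and 23.8 CPM with a difference of 0.96, just under the rule, which it met without MOC cell 7 (14.1 CPM in MOC). It was also called for LOC without the microglia-rich libraries (1.22) and without the oligodendrocyte-rich ones (2.07). In cells with at least 10 cholinergic reads its difference was 0.06 (44.8 against 28.15 CPM), and without LOC cell 14 and MOC cell 13 it was 0.53. Unc5d was at 20.1 and 20.2 CPM. Without LOC cell 14 its LOC level was 4.06 CPM and it met the rule as higher in MOC (-1.11), and without MOC cell 9 its MOC level was 9.17 CPM.

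**Figure D4:**
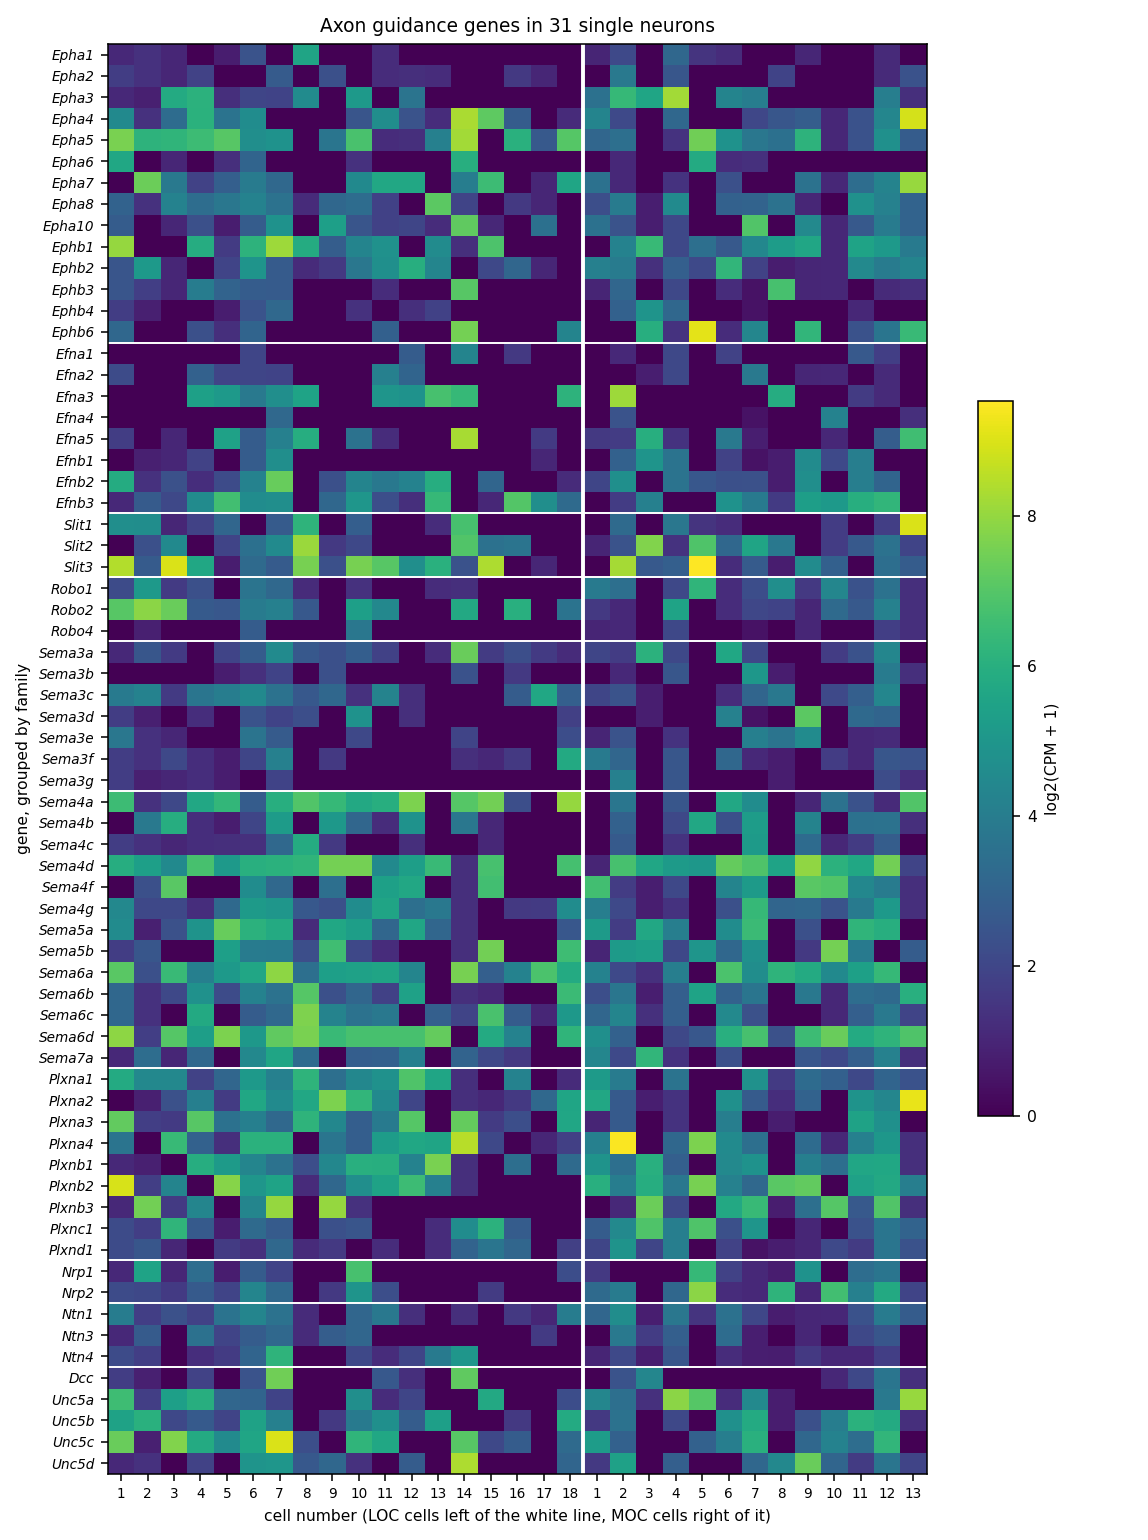
Level in log2(CPM + 1) of each of the 67 guidance genes (rows, by family) in each of the 31 neurons (columns, LOC then MOC). Many genes are at or near 0 in some cells and high in others of the same group, and LOC cells 7 and 14 and MOC cell 5 hold the highest level of their group for 13, 14 and 10 genes.

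In 14 of the 18 LOC and 12 of the 13 MOC cells, over 50% of the guidance genes had at least 1 read. LOC cells had a read of 19 to 63 of the 67 members (median 45.5), and MOC cells of 24 to 63 (median 48). After each cell was thinned to 350000 counts the medians were 37 and 39, and no cell was too shallow to be thinned. With at least 5 reads required, the medians were 23 and 25. The fewest came from LOC cell 17, which also had the fewest genes read (6654) and the most oligodendrocyte RNA. The members together made up 1474 CPM of the LOC and 1319 CPM of the MOC counts. In single cells their sum ran from 231 to 3578 CPM in LOC and from 641 to 2878 CPM in MOC. The highest sums were in LOC cell 14 and MOC cell 5, of which the first had 0 and the second 997 cholinergic reads.

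**Figure D5:**
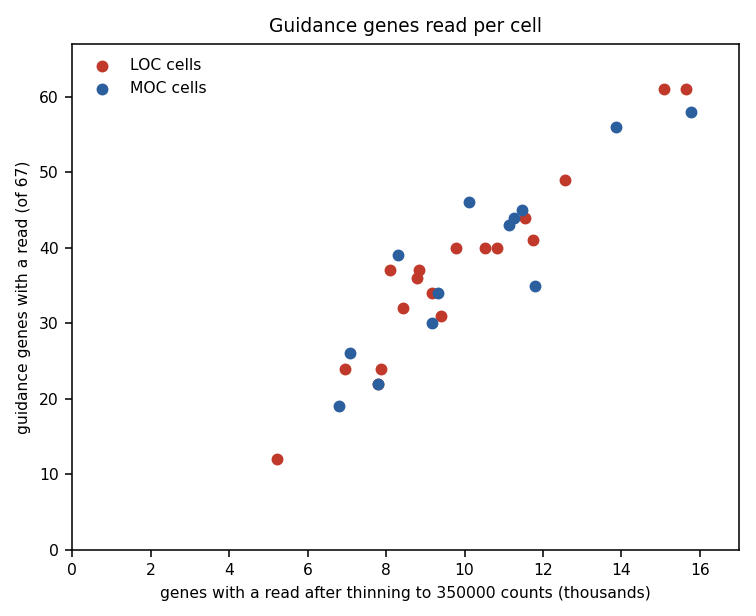
Number of the 67 guidance genes with a read (y axis) against the number of all genes with a read (x axis, in units of 1000 genes), 1 point per LOC or MOC cell, both after thinning to 350000 counts. LOC cells span 12 to 61 and MOC cells 19 to 58 guidance genes.

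The reads of most members were uneven over cells. The cell with the most reads of a member gave a median of 38.3% of its LOC reads and 45.65% of its MOC reads, beside 33.3% and 40.7% for all measured genes. For 18 members in LOC and 27 in MOC, 1 cell gave more than 50% of the reads. LOC cell 14 was the highest LOC cell for 14 members, LOC cell 7 for 13, and MOC cell 5 the highest MOC cell for 10. Without LOC cell 14 and MOC cell 13, 7 members met the rule in each direction, beside 5.96% (LOC) and 5.97% (MOC) of all genes in that run, and 11 of the 12 calls remained, Epha5 being the exception. The count of LOC-higher members was 3 without MOC cell 3, beside 5.24% of all genes in that run. It was 9 without LOC cell 17 (7.33% of all genes) or without MOC cell 2 (6.16%). The count of MOC-higher members was 3 without MOC cell 5, beside 5.54% of all genes. In cells with at least 10 cholinergic reads, 7 members were called for LOC and 9 for MOC, beside 8.47% and 6.9% of all genes.

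Ligands and receptors of one system were often read in the same cell. For ephrin-A ligands with EphA receptors this held in 15 of the 18 LOC cells and 12 of the 13 MOC cells. For ephrin-B with EphB the counts were 16 and 12. Slits and Robos shared 13 LOC and 12 MOC cells, and in 4 LOC cells a Slit was read without any Robo. Class 3 semaphorins and neuropilins were read together in 12 LOC and 11 MOC cells, and netrins with Dcc or an Unc5 in 16 and 13. With at least 5 reads of each required, the counts were lower, at 11 and 8, 12 and 8, 10 and 8, 4 and 6, and 11 and 6 in the same order. In 7 of 18 LOC cells a class 3 semaphorin then passed without a neuropilin, against 3 of 13 MOC cells, and in 7 MOC cells a netrin receptor passed without a netrin, against 2 LOC cells. Families differ in their number of genes and cells in their depth, and the part of either in these counts was not tested.

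Of the other guidance genes, 28 of 34 co-receptors and cues and 50 of 52 intracellular effectors were read in over 50% of the cells. Of 34 measured co-receptors and other cues, 2 met the rule for LOC and 2 for MOC, 5.88% each way beside the 6.07% and 5.67% of all genes. Celsr3, a cadherin needed for axon tracts, was at 65.3 CPM in LOC against 19.7 in MOC, and Lrig2, a membrane protein that limits the shedding of guidance receptors, at 45.0 and 10.5 CPM. Rgmb, a ligand of neogenin, was at 40.4 CPM in LOC against 196 in MOC, and Ryk, a Wnt receptor in axon guidance, at 9.19 and 26.2 CPM. The Rgmb difference was -1.46 over all cells and -0.26 in cells with at least 10 cholinergic reads, and that of Ryk was -1.42 and -0.95. Without the microglia-rich libraries Ryk was not called either (-0.94, 9.52 against 19.9 CPM), and with medians over cells Rgmb (-0.53) and Celsr3 (0.82) were not. A pseudocount of 10 ended the calls of Celsr3 (0.88), Lrig2 (0.775) and Ryk (-0.71). Without LOC cell 14 the LOC level of Ryk was 5.61 CPM.

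Of 52 measured intracellular effectors, 7 (13.5%) met the rule for LOC and 2 (3.85%) for MOC, beside 6.07% and 5.67% of all genes. Ngef, the exchange factor through which EphA receptors act on the actin cytoskeleton, had a difference of 3.17, wider than that of any ligand or receptor. Its levels were 112 CPM in LOC against 12.2 in MOC, and reads were found in 16 of the 18 LOC cells against 7 of the 13 MOC cells. MOC cell 13 gave 77.2% of the MOC reads, and the MOC level without it was 2.94 CPM. Vav3, an exchange factor also recruited by Eph receptors, was at 73.5 and 7.26 CPM (1.98), with 4.72 CPM in MOC when cell 7 was left out. Srgap3, a GTPase-activating protein of the Slit and Robo pathway, was at 143 and 44.7 CPM (1.69). Gipc1, an adaptor that binds the tail of neuropilin 1, was at 43.7 CPM in LOC against 94.6 in MOC (-2.68). It missed the rule without LOC cell 2 (-2.48) or MOC cell 2 (-2.44), as the group levels then lay within a factor of 2. Mical2, Ablim3, Kalrn and Srgap1 were the other LOC-higher effectors and Pak1 the other MOC-higher one, named after their values were seen. Ablim3 was not called without LOC cell 3 or MOC cell 7, Pak1 without LOC cell 15 or MOC cells 1 or 2, and Kalrn without any 1 of LOC cells 1, 5 and 14 or MOC cells 3, 5, 7 and 10. Srgap1 was not called without any 1 of LOC cells 1, 3, 4, 5, 6, 10, 11, 13, 15 and 16 or MOC cells 3, 5, 8, 10 and 13, whereas Ngef, Vav3, Srgap3 and Mical2 met the rule in all such runs and under all 10 other settings that alter the values. Other scalings ended the calls of Kalrn and Srgap1 (TMM sizes, DESeq2 size factors and the authors' normalized values) and of Ablim3 (the authors' values, 1.37). Thinning ended those of Kalrn (1.11) and Ablim3 (1.69), and Kalrn was also lost with medians over cells (0.82) and without the oligodendrocyte-rich libraries (1.24). Medians over cells ended the call of Pak1 too (-0.20). With a pseudocount of 10 none of Ablim3, Kalrn and Srgap1 was called. The median difference was 0.22 for the co-receptors and cues and 0.22 for the effectors, beside -0.07 for all genes.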

How the data were processed

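The authors deposited raw read counts per gene. Their second deposited table holds a normalized signal, by its name CPM with TMM scaling, in which each column is the raw counts times 1 constant. Per the submitters' processing notes the tools include STAR 2.5.2, bcl2fastq, limma, edgeR and DESeq2, with GRCm38 and mm10 as builds. No counter, handling of shared reads or filter for the second table is given in the sources used here. Nextera libraries keep no strand, so reads of overlapping genes cannot be told apart, which touches the 17 members that share exonic bases with another gene. Symbols and merged exon lengths came from GENCODE M21 (GRCm38), which matched 55154 of the 55421 mouse identifiers, and positions count from 1. Rows of added sequences (0.0173% of counts) were left out of library sizes.

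CPM used each cell's 356412 to 2627174 mouse counts. Measured genes had a read in 25% or more of either group's cells: 17754 genes, all 67 members included. Summed levels have exact Poisson and shares exact Clopper-Pearson 95% intervals. Means and SDs over cells are of log2(CPM + 1), a scale that understates differences of low genes. Groups came from the labels. Python 3.11.15 with pandas 2.3.3 and scipy 1.17.1 computed the values, and edgeR 4.0.16 and DESeq2 1.42.0 gave alternative scalings only. The size rule was tried on simulated counts with known changes and counting error only. That checked the code and gives no error rate for these cells. The alternatives were summed counts, a pseudocount of 10, TMM sizes, DESeq2 size factors, the authors' normalized values, medians over cells, no filter, a filter at 50% of cells, thinning, 5 reads as detection, restricted sets of cells, and leaving out each cell.

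Genes named with full values were those that met the size rule, the 2 highest per kilobase in each family, the 5 widest differences per direction with reads in 50% or more of the cells where higher, and up to 4 called genes of each other guidance list. The members, the lists and the rule were chosen with earlier results of these data known. RefSeq start windows (GRCm38.p6) matched 57 of the 67 members. The value of 1 microglia marker is not reported here.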

Additional observations from a re-analysis of the deposited data

How the results depend on the processing

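With 1 sample per group, depth and the spread between cells limit every value: a count of 0 in a cell allows 1.14 to 8.42 CPM, and pipette samples differed widely in glial RNA. Sema4a, Plxna3 and Nrp2 met the size rule under the 10 other settings that alter the values and in all 31 runs without 1 cell. The other 3, summed counts alone and both changed filters on cells, could only keep these calls. Robo2 and Efnb1 met it in all 31 runs and were lost with a pseudocount of 10 (0.99 and -0.42), Efnb1 also after thinning (-0.85). With a pseudocount of 10, 2 members were called for LOC and 1 for MOC, beside 2.08% and 1.18% of all genes, and with summed counts alone 13 and 15, beside 20.5% of all genes each way. The median difference of the members was -0.0079 with summed counts, -0.25 with TMM sizes and 0.018 without the oligodendrocyte-rich libraries. Over the runs without 1 cell, 3 to 9 members were called for LOC and 3 to 8 for MOC. The shares of all genes in these runs were 5.15% to 7.33% and 4.8% to 6.63%. The median difference of the members then lay between -0.26 and -0.052. With 5 reads as detection, a median of 23 LOC and 25 MOC members were read per cell; without 1 cell, the medians with any read were 45 to 46 and 47 to 50.

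Called co-receptors and cues numbered 6 (LOC) and 8 (MOC) with summed counts, 0 and 1 with a pseudocount of 10, 5 and 1 with at least 10 cholinergic reads, 4 for LOC without the oligodendrocyte-rich libraries, and 1 for MOC both with medians over cells and without the microglia-rich libraries. Called effectors for LOC numbered 11 with summed counts, 4 with a pseudocount of 10, 4 with the authors' normalized values and 11 without the oligodendrocyte-rich libraries, and for MOC 4 with at least 10 cholinergic reads. The share of all genes called for LOC moved too, to 20.5%, 2.08%, 5.46% and 9.28% in the first 4 of these runs, and was 6.9% for MOC in the last. With at least 10 cholinergic reads it was 8.47% for LOC. For MOC it was 20.5% with summed counts, 1.18% with a pseudocount of 10 and 6.79% with medians over cells. Leaving out the microglia-rich libraries gave 5.12% for MOC. Without 1 cell the co-receptors gave 2 to 3 (LOC) and 2 (MOC) and the effectors 5 to 10 and 0 to 3. The effectors for MOC numbered 0 without MOC cell 2 and 1 without LOC cells 2 or 15 or MOC cell 1. Over the runs without 1 cell the share of all genes was 5.15% to 7.33% for LOC and 4.8% to 6.63% for MOC. The cause of these changes was not tested. The run without LOC cell 14 and MOC cell 13 was chosen after seeing the data. No paired analysis was possible because the replicate numbers only name cells and no test was run.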
